A study of Caenorhabditis elegans with 15 samples.

Results

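The genes described here are the acyl-CoA synthetases (acs), acyl-CoA dehydrogenases (acdh), enoyl-CoA hydratase family genes (ech) and carnitine palmitoyltransferases (cpt) of *Caenorhabditis elegans*. They were taken by name: every gene whose name starts with acs-, acdh-, ech- or cpt- and that reached 1 CPM (counts scaled to library size) in at least 3 of the 15 libraries. All 49 genes with these names passed, namely 21 acs, 13 acdh, 9 ech and 6 cpt genes. They are 49 of 14037 tested genes and of 20541 genes in the count table.

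RNA sequencing of whole N2 wild-type hermaphrodite cultures compared larvae given ursolic acid (UA), larvae given the vehicle DMSO and untreated larvae. UA is a plant triterpenoid. Synchronized larvae of all 3 groups were fed OP50 bacteria for 34 h to the L3 stage and were L4 larvae at harvest, after a further 12 h with 50 µM UA, with DMSO or with no addition. Each group had 5 libraries, and the replicate number in the labels is a batch, so that each of 5 batches held 1 library of each group. Each library came from many animals, and the study's methods call the replicates of a group independent. In RNA from whole animals, fewer cells of a type and less RNA per cell cannot be told apart.

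Fatty acids enter breakdown as CoA thioesters. Acyl-CoA synthetases make the thioester, and carnitine palmitoyltransferases act in the entry of long acyl chains into mitochondria. Acyl-CoA dehydrogenases and enoyl-CoA hydratases then catalyse the opening steps of each round of beta-oxidation, and some of their relatives break down branched-chain amino acids and propionate instead. In *C. elegans* the intestine is a main site of fat storage and breakdown, and the nuclear receptor NHR-49 raises several of these genes on fasting, acs-2 among them.

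Total counts ranged from 12485842 to 27474535 per library, and the lowest was the UA library of batch 5. The 49 genes together took 0.828% to 0.918% of the counts of a library. Intestine markers were present in every library, with summed levels from 5484 to 6759 CPM over 9 genes. Summed levels of 8 sperm markers ranged from 127 to 404 CPM and those of 6 yolk genes from 313 to 3148 CPM.

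A pair of genes of the propionate shunt was far above the rest. This shunt is a beta-oxidation-like route used when vitamin B12 is low. Its dehydrogenase acdh-1 stood at a mean of 1986 CPM per kilobase of exon and its hydratase ech-6 at 1149. Together they took 51.5% of the summed CPM of the 49 genes, a share not scaled for gene length.
The level per kilobase of the other 47 genes was at most 162. That value belonged to acdh-10, a medium-chain acyl-CoA dehydrogenase. The very long-chain dehydrogenase acdh-12 stood at 116 CPM per kilobase and the acetyl-CoA synthetase acs-19 at 108. The synthetase acs-4 was also at 108, the mitochondrial inner membrane transferase cpt-2 at 107 and the isomerase family gene ech-4 at 105.
The lowest levels per kilobase were those of acs-9 (1.13), cpt-3 (1.22), ech-9 (2.67) and ech-1 (3.39), the last now named ech-1.1 and similar to the alpha subunit of the mammalian mitochondrial trifunctional protein. These genes had few reads, with 23 to 72 counts per library for acs-9, 24 to 113 for cpt-3 and 43 to 185 for ech-9.

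**Figure D1:**
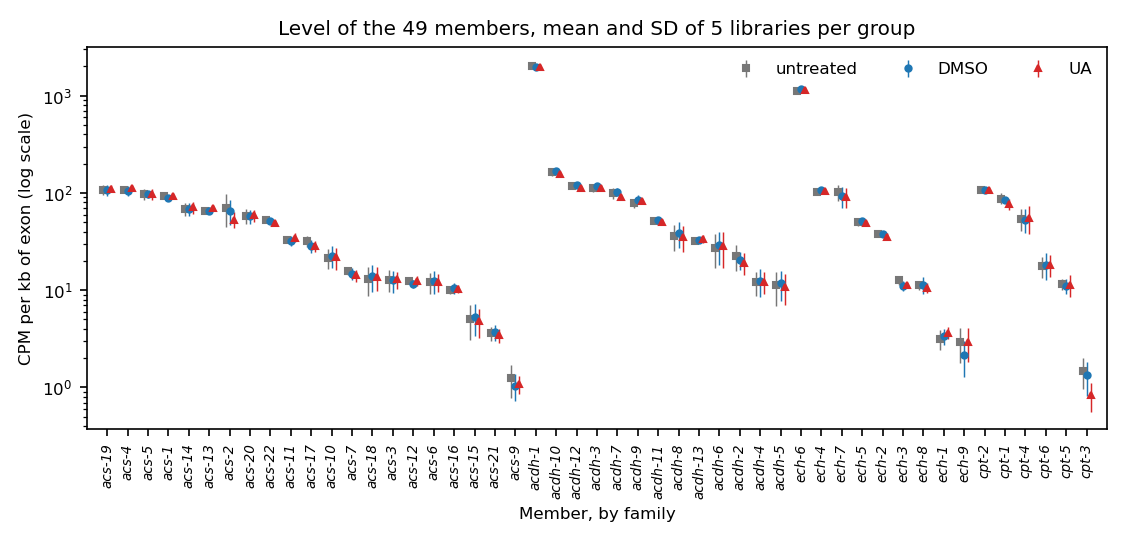
Level of each of the 49 genes in CPM per kilobase of exon (log axis), by family and in falling order within a family. Points are group means and bars the SD of 5 libraries. The genes acdh-1 (1986) and ech-6 (1149) lie far above the others, and the 3 groups nearly coincide for most genes.

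The first question was whether UA changed these genes relative to its vehicle. With all 15 libraries, 0 of the 49 genes passed a false discovery rate of 0.02 between UA and DMSO in edgeR's quasi-likelihood test, which calls 0.271% of all tested genes. DESeq2 also called 0. At an unadjusted p under 0.05 there were 10 genes (20.4%, against 14% of all genes), 3 higher and 7 lower.
Most differences were small. The 95% interval of the log2 fold change lay within 0.5 of 0 for 46 of 49 genes, and the exceptions were acs-2, ech-9 and cpt-3. The median log2 fold change was -0.02 over the 49 genes. Among the acdh genes 11 of 13 had a lower estimate in UA than in DMSO (50.6% of all genes did), and none passed the threshold. Against untreated larvae 8 of 13 had a lower estimate in UA, and 11 of 13 had a higher one in DMSO, in comparisons that share libraries. UA and DMSO differed in 1 direction in every batch for 11 of the 49 genes and for 1543 of all 14037 tested genes (11%).

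The smallest p belonged to ech-9, a gene of the enoyl-CoA hydratase and hydroxyacyl-CoA dehydrogenase type. Its levels in batches 1 to 5 were 3.90, 2.97, 4.24, 5.46 and 7.78 CPM in UA and 3.50, 2.07, 3.16, 3.10 and 5.89 CPM in DMSO. UA was higher in 5 of 5 batches although the groups overlapped (log2 fold change 0.47, SE 0.10, edgeR adjusted p = 0.0479). Untreated larvae had 3.94, 3.16, 4.17, 4.81 and 7.99 CPM, so that DMSO was the low group. Against untreated larvae, UA was at a log2 fold change of 0.03 (SE 0.10; -0.05 without the UA library of batch 4) and DMSO at -0.44 (SE 0.10, edgeR adjusted p = 0.0941). These comparisons share libraries. The adjacent gene ech-8, of the same type, lies 1296 bases away on the same strand of chromosome IV, and its log2 fold change between UA and DMSO was -0.10 (SE 0.09).

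The medium-chain dehydrogenases acdh-7 and acdh-10 are neighbours on chromosome X, 114 bases apart on the same strand. Their log2 fold changes between UA and DMSO were -0.16 (SE 0.05, edgeR adjusted p = 0.178) and -0.10 (SE 0.04, edgeR adjusted p = 0.266). The dehydrogenase acdh-8 was at -0.14 (SE 0.04, edgeR adjusted p = 0.109) and lower in 5 of 5 batches. Against untreated larvae acdh-8 was at -0.02 in UA (SE 0.04) and at 0.11 in DMSO (SE 0.04), so that DMSO was the high group. None of these passed the threshold. Between UA and DMSO acdh-1 was at 0.01 (95% interval -0.07 to 0.09), ech-6 at -0.05 (95% interval -0.13 to 0.02) and cpt-2 at -0.02 (95% interval -0.10 to 0.05).

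Against untreated larvae, 1 gene was called and was lower in UA, cpt-3 (WBGene00021703, WBcel235 III:2082819-2088314, plus strand), a carnitine palmitoyltransferase relative of low level. The background of this comparison is 1.05% of tested genes called, or 0.563% called lower. In batches 1 to 5 cpt-3 stood at 0.98, 2.62, 1.65, 2.06 and 2.12 CPM in UA and at 1.88, 3.72, 3.86, 2.45 and 4.88 CPM in untreated larvae. The groups overlapped, but UA was lower in 5 of 5 batches. The log2 fold change was -0.79 (SE 0.15, edgeR adjusted p = 0.00594).
Against DMSO, at 1.59, 3.75, 2.56, 2.56 and 4.50 CPM, cpt-3 was again lower in 5 of 5 batches but did not pass (log2 fold change -0.62, SE 0.15, edgeR adjusted p = 0.0693). The call against untreated larvae was lost without batch 1, 3 or 5, without the UA library of batch 1, 3 or 5 and without the untreated library of batch 3 or 5. Over these 15 leave-out fits the adjusted p ran from 0.000752 to 0.0561.
The next smallest p-values were those of acs-7, a synthetase that acts in the assembly of ascaroside signals (log2 fold change -0.17, SE 0.05, edgeR adjusted p = 0.0837), and of acs-17 (-0.17, SE 0.05, edgeR adjusted p = 0.140).

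Between DMSO and untreated larvae 0 of the 49 genes were called (0.121% of all genes), with 9 at an unadjusted p under 0.05 (7.91% of all genes) and 0 called by DESeq2. Apart from ech-9 the smallest p-values were those of acs-17 (log2 fold change -0.16, SE 0.05) and acdh-8 (0.11, SE 0.04), each on the same side in 5 of 5 batches.

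**Figure D2:**
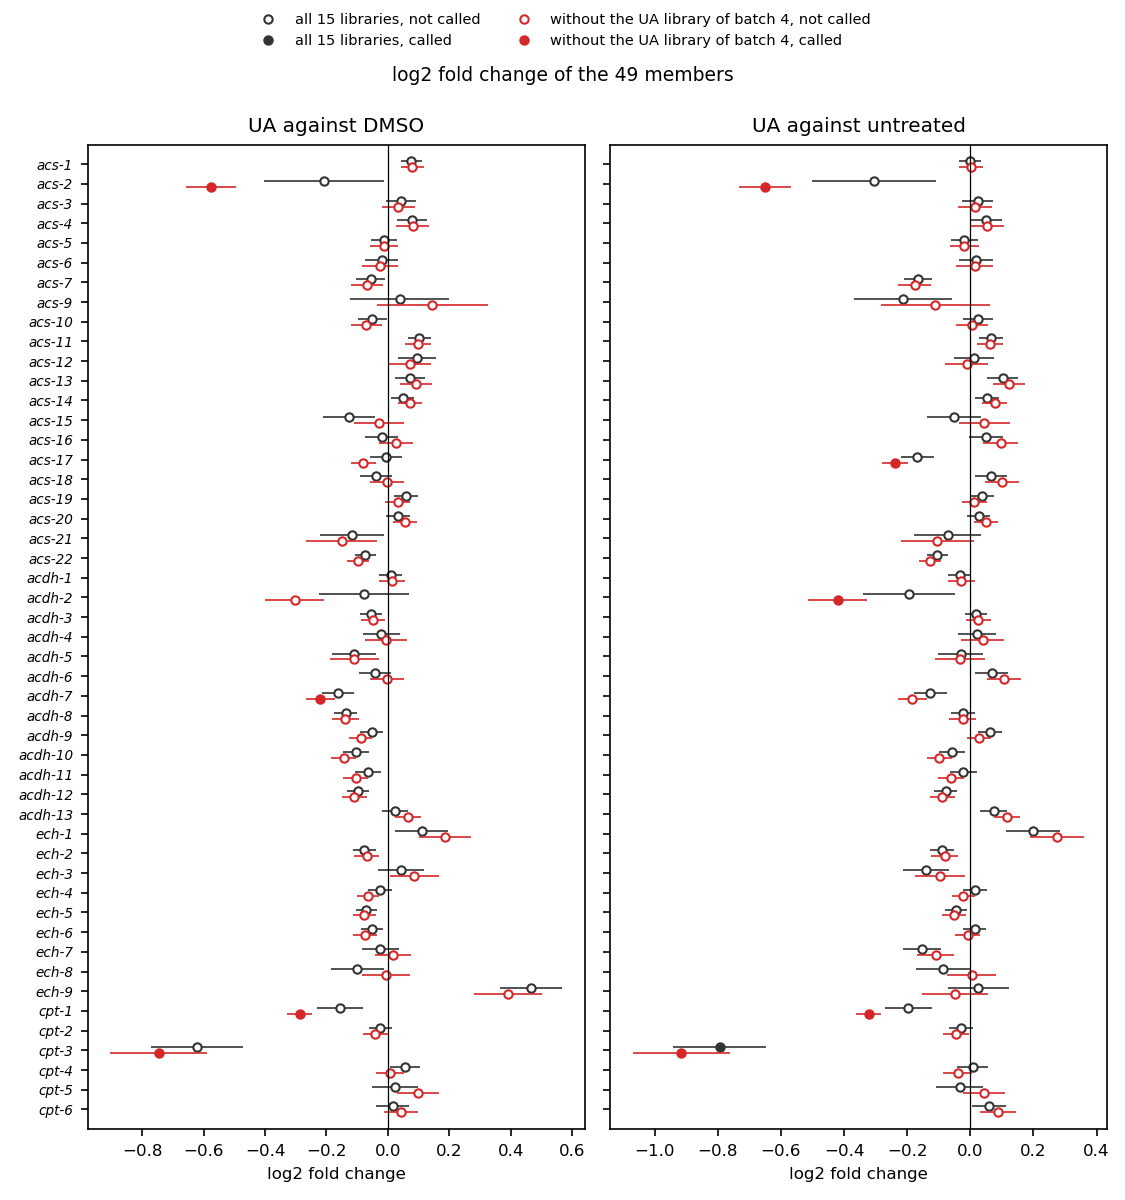
Log2 fold change (horizontal axis) of each of the 49 genes for UA against DMSO (left) and UA against untreated larvae (right). Bars are standard errors; black stands for all 15 libraries, red for the 14 without the UA library of batch 4, and filled points passed the false discovery rate of 0.02. The genes acs-2, cpt-1 and acdh-2 moved most between the fits.

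The UA library of batch 4 was then set apart. Without it 4 of the 49 genes were called between UA and DMSO, all lower in UA: acs-2, cpt-1, cpt-3 and acdh-7. The background is 1.16% of 14014 tested genes, or 0.714% called lower. Against untreated larvae 5 genes were called, all lower: acs-2, cpt-1, cpt-3, acs-17 and acdh-2 (background 2.83%, or 1.76% called lower). This library was singled out with its values known, and both comparisons share the UA libraries. Against untreated larvae the 6 yolk genes also had lower estimates in UA, 6 of 6 with a median log2 fold change of -0.42 with all libraries and -0.36 without this library, and vit-2 and vit-6 were called in both fits. Against DMSO 6 of 6 had lower estimates with all libraries (median -0.28), and none was called. The part of the yolk genes' difference in the results on these genes was not tested.

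The gene acs-2 (WBGene00009221, WBcel235 V:15567394-15569897, plus strand) encodes a mitochondrial acyl-CoA synthetase. In batches 1 to 5 it stood at 110, 81.0, 103, 134 and 127 CPM in UA. The levels were 180, 138, 136, 73.03 and 151 CPM in DMSO and 194, 162, 133, 58.5 and 190 CPM in untreated larvae. In batches 1, 2, 3 and 5 every UA library lay below every control library. In batch 4 both controls were the lowest of their groups, below all the other controls, and the UA library was the highest of its group, at a level inside the range of the other controls (133 to 194 CPM).
With all libraries the log2 fold change against DMSO was -0.21 (SE 0.19, edgeR adjusted p = 0.679). Without the UA library of batch 4 it was -0.58 (SE 0.08, edgeR adjusted p = 0.000319), and against untreated larvae -0.65 (SE 0.08, edgeR adjusted p = 2.85e-05).

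The gene cpt-1 (WBGene00012907, WBcel235 II:12788244-12796452, minus strand) encodes carnitine palmitoyltransferase I, which makes the acylcarnitines that enter mitochondria. It stood at 205, 203, 187, 259 and 213 CPM in UA, at 241, 242, 228, 218 and 264 CPM in DMSO and at 264, 248, 228, 203 and 285 CPM in untreated larvae. It had the pattern of acs-2 on a smaller scale: UA lay below every control in 4 batches, and in batch 4 the UA library was the highest of its group beside the lowest controls. Without that library the log2 fold change was -0.29 (SE 0.04, edgeR adjusted p = 0.000311) against DMSO and -0.32 (SE 0.04, edgeR adjusted p = 2.96e-05) against untreated larvae. With it, the value against DMSO was -0.16 (SE 0.07, edgeR adjusted p = 0.353).

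The dehydrogenase gene acdh-2 (WBGene00015894, WBcel235 II:5544778-5547492, minus strand; 87 exon bases overlap ins-13 on the same strand) stood at 20.5, 41.1, 36.1, 40.3 and 42.2 CPM in UA and at 32.8, 52.4, 47.2, 25.4 and 52.8 CPM in untreated larvae. DMSO libraries had 40.8, 40.6, 41.3, 24.01 and 44.3 CPM. Here too both batch 4 controls were the lowest of their groups, while the UA library of batch 4 lay inside the range of the other UA libraries. Without it the log2 fold change against untreated larvae was -0.42 (SE 0.09, edgeR adjusted p = 0.00963), and this call held in 7 of 14 further leave-out fits. DESeq2 did not make it (DESeq2 adjusted p = 0.101).

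In acdh-7 (WBGene00020812, WBcel235 X:17215018-17217105, minus strand) the UA libraries differed little from each other, at 121.5, 126.1, 119.5, 121.3 and 123.9 CPM. DMSO stood at 133, 157, 144, 121 and 134 CPM and untreated larvae at 132, 149, 130, 109 and 153 CPM. Both batch 4 controls were the lowest of their groups, while the UA library of batch 4 lay inside the range of the other UA libraries. Without the UA library of batch 4 the log2 fold change against DMSO was -0.22 (SE 0.05, edgeR adjusted p = 0.0134). The same fit did not call acdh-7 against untreated larvae. The synthetase gene acs-17 (WBGene00016716, WBcel235 X:5937506-5944510, minus strand) had 72.4, 76.1, 76.9, 88.7 and 96.4 CPM in UA and 86.1, 91.8, 93.6, 79.5 and 111 CPM in untreated larvae. Against untreated larvae it was at a log2 fold change of -0.24 (SE 0.04, edgeR adjusted p = 0.000955) without that library. DMSO libraries had 75.8, 74.7, 81.8, 76.8 and 105 CPM. Against DMSO the same fit gave UA at -0.08 (SE 0.04, edgeR adjusted p = 0.336). With all libraries DMSO was at -0.16 (SE 0.05) against untreated larvae. The exons of acs-17 overlap an opposite-strand gene by 109 bases, and the strand setting of the counting is not given in the sources used here.
For cpt-3 the values without the library were -0.75 against DMSO (SE 0.16, edgeR adjusted p = 0.0122) and -0.92 against untreated larvae (SE 0.15, edgeR adjusted p = 0.000752).

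**Figure D3:**
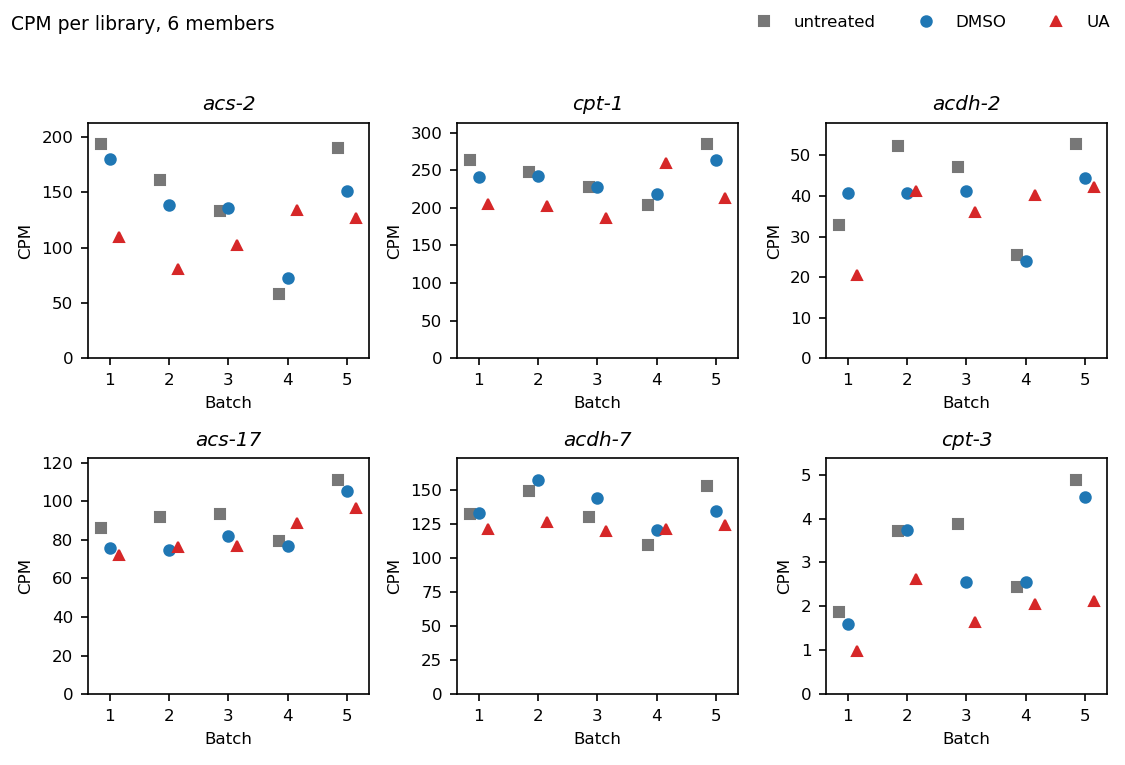
CPM of 6 genes in each library by batch, on axes that start at 0; squares are untreated, circles DMSO and triangles UA. In batches 1, 2, 3 and 5 the UA libraries of acs-2 and cpt-1 lie below all controls, and in batch 4 the UA library lies above both controls, 134 against 58.5 and 73.03 CPM for acs-2.

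The calls differed in how far they rested on other libraries. For acs-2 and cpt-1 each call without the UA library of batch 4 held in all 14 further leave-out fits (a batch or library removed), against both controls. Among these 14 was the fit with all of batch 4 left out: against DMSO acs-2 was then at -0.54 (edgeR adjusted p = 0.000298) and cpt-1 at -0.27 (edgeR adjusted p = 0.000625).
Against untreated larvae cpt-3 and acs-17 also held in 14 of 14 fits, with highest adjusted p-values of 0.0115 and 0.0127 (edgeR). Against DMSO cpt-3 was called in 3 of those 14 fits and acdh-7 in 4. In that comparison only acs-2 and cpt-1 remained without batch 1, 2, 3 or 4, without the DMSO library of batch 2 or 4 and without the UA library of batch 3 or 5. In batches 1, 2, 3 and 5 alone, in a count added after seeing the data, 4 of the 49 genes had all 4 UA libraries below all 8 controls (0.413% of all genes): acs-2, cpt-1, acdh-7 and acs-22, a fatty acid transport protein relative named here after its values were seen. None had them all above (0.413% of all genes).

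A term for the UA library of batch 4 alone, its distance from the level that group and batch give, was called for 3 genes, all higher (background 1.25% of tested genes, 1.05% higher). It was 1.64 for acs-2 on the log2 scale (SE 0.16, edgeR adjusted p = 3.66e-06), or 3.11-fold. It was 1.07 for acdh-2 (SE 0.19, edgeR adjusted p = 0.00176), or 2.10-fold, and 0.60 for cpt-1 (SE 0.08, edgeR adjusted p = 8.29e-05), or 1.52-fold. With DESeq2, 2 of the 49 genes were called, and acdh-2 was not (DESeq2 adjusted p = 0.0224). The same term for each of the other 14 libraries was called for 0 of the 49 genes and for 0% to 0.221% of all tested genes. Because the term sets the library against its own batch, a high UA level and low control levels in batch 4 cannot be told apart by it. Both batch 4 controls were the lowest of their groups in 14 of the 49 genes and in 11.3% of all tested genes.

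These genes differed more between batches than between groups. The range of the 5 batch means exceeded the range of the 3 group means in 49 of 49 genes, as it did in 95.8% of all tested genes. Batch means are more in number and rest on 3 libraries each, group means on 5, which by itself favours a wider range of batch means. Across batches 35 of 49 genes were called by edgeR's joint test (71.4%, against a background of 53% of all genes): 15 of 21 acs, 8 of 13 acdh, 8 of 9 ech and 4 of 6 cpt genes. The median range of batch means was 0.42 on the log2 scale, against 0.35 over all genes, and that of group means was 0.10 in both sets.

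**Figure D4:**
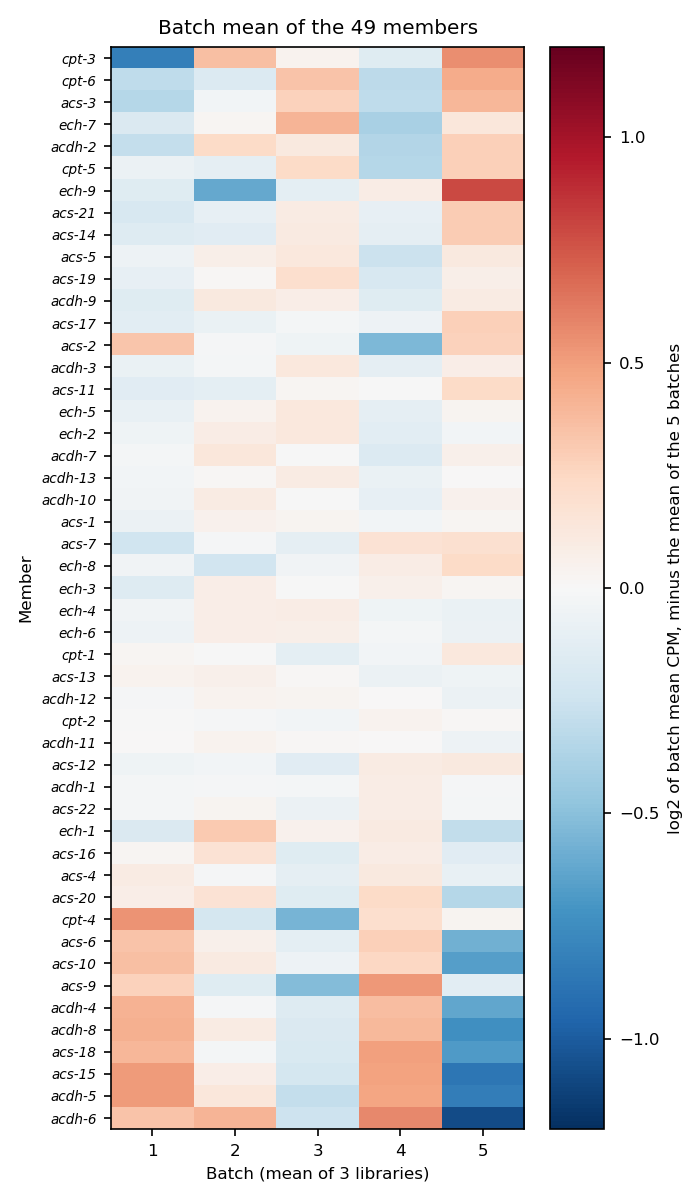
Log2 of the mean CPM of each of the 49 genes in each batch (3 libraries), minus the gene's mean over the 5 batches. Rows are ordered by batches 1 and 4 against 3 and 5; red is above and blue below the gene's mean, and acdh-6 has the widest range (1.64).

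The widest range was that of the dehydrogenase gene acdh-6. Its levels in untreated larvae were 41.0, 43.9, 27.9, 50.7 and 16.3 CPM in batches 1 to 5. DMSO libraries had 43.3, 47.1, 29.2, 54.8 and 18.8 CPM and UA libraries 47.6, 47.1, 30.2, 49.2 and 14.5 CPM. All 3 libraries of batch 5 were below all others, and the batch means spanned 3.12-fold (log2 range 1.64, edgeR adjusted p = 1.86e-12).
The next ranges were those of ech-9 (1.38), acs-15 (1.36), acdh-5 (1.33), cpt-3 (1.28) and acs-18 (1.16). Batch 5 was the highest for ech-9 and cpt-3 and the lowest for acs-15, acdh-5 and acs-18. The smallest ranges were those of cpt-2 (0.07), acdh-11 (0.10), a dehydrogenase that restrains the desaturase fat-7, and acdh-12 (0.11), and these 3 were not called.

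The genes split by batch in opposite ways. All 6 libraries of batches 1 and 4 lay above all 6 of batches 3 and 5 for 11 genes (15.9% of all genes do so): acs-4, acs-6, acs-10, acs-15, acs-16, acs-18, acs-20, acdh-4, acdh-5, acdh-6 and acdh-8. They lay below for 10 genes (8.41% of all genes): acs-3, acs-5, acs-14, acs-19, acdh-3, acdh-9, ech-5, ech-7, cpt-5 and cpt-6. As examples, acdh-8 had batch means of 64.02 and 62.3 CPM in batches 1 and 4 against 42.3 and 28.6 in batches 3 and 5. The transferase gene cpt-6 had 33.7 and 33.5 CPM against 52.6 and 56.6.
Germline markers and yolk genes moved with the same batches. The summed level of the 8 sperm markers in untreated larvae was 372, 309, 214, 361 and 150 CPM in batches 1 to 5, that of 10 oocyte and germline markers 1781, 1676, 1449, 1790 and 1363 CPM, and that of the 6 yolk genes 2686, 1116, 454, 1177 and 432 CPM. In the same libraries 8 neuron markers summed to 314, 323, 329, 312 and 382 CPM and 9 intestine markers to 5589, 5735, 5622, 5484 and 6661 CPM. The joint batch test called 7 of 8 sperm, 9 of 10 oocyte and germline and 6 of 6 yolk genes (53% of all genes). It also called 5 of 8 neuron, 7 of 9 intestine, 8 of 8 hypodermis and 1 of 8 body muscle markers. The part of any of these markers in the batch differences above was not tested.

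**Figure D5:**
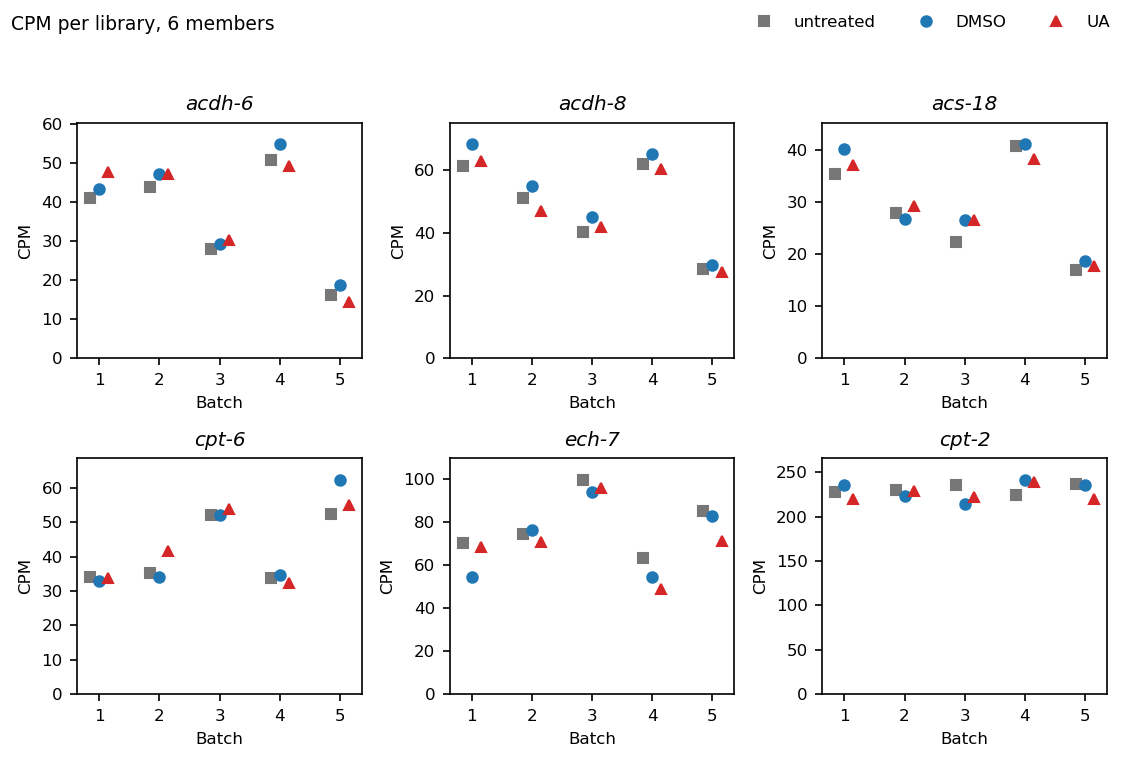
CPM of 6 genes in each library by batch, on axes that start at 0; squares are untreated, circles DMSO and triangles UA. The genes acdh-6, acdh-8 and acs-18 are high in batches 1 and 4, acdh-6 also in batch 2, and all 3 are low in batch 5. The genes cpt-6 and ech-7 are low in batches 1 and 4, and cpt-2 is nearly level (log2 range of batch means 0.07).

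Batches 4 and 5 held the most differences, as they did over all tested genes. Set against the mean of the other 4 batches, 18, 10, 17, 25 and 24 of the 49 genes were called for batches 1 to 5. These are 36.7%, 20.4%, 34.7%, 51% and 49%, beside backgrounds of 25.8%, 13.3%, 20.1%, 33.4% and 40.9% of all genes. In batch 4 the calls were 13 higher (20.9% of all genes) and 12 lower (12.5%). In batch 5 they were 13 higher (18.2%) and 11 lower (22.7%). The genes acs-2 and cpt-1 did not pass the joint test (edgeR adjusted p = 0.0583 and 0.246). Their batch means spanned 0.92 and 0.24 on the log2 scale, and the test included the UA library of batch 4.

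Other genes of acyl-CoA metabolism were examined as 6 lists. They held 13 other mitochondrial beta-oxidation enzymes, 18 peroxisomal genes, 13 genes of propionate breakdown and 12 regulators. The rest were 26 acyl-CoA users and binding proteins and 7 genes of branched-chain amino acid breakdown. Between UA and DMSO 0 of the 88 different genes were called (0.271% of all genes). Against untreated larvae 2 of the 88 were called (2.27%, against 1.05% of all genes), both lower in UA. These were the delta-9 desaturases fat-5 (log2 fold change -0.46, SE 0.07, edgeR adjusted p = 0.00108) and fat-7 (-0.40, SE 0.05, edgeR adjusted p = 0.000108). With DMSO alone fat-7 fell by 0.33 on the log2 scale (SE 0.05, edgeR adjusted p = 0.00401), in a comparison that shares the untreated libraries. It was the only 1 of the 88 genes called there (1.14%, against 0.121% of all genes).
Without the UA library of batch 4, 4 of the 88 different genes of these lists (4.55%, against 1.16% of all genes) were called higher in UA than in DMSO: the peroxisomal transporter pmp-3 (0.20), the desaturase fat-3 (0.19) and the elongases elo-5 (0.23) and elo-6 (0.21). Against untreated larvae the same fit called 9 of the 88 list genes (10.2%, against 2.83% of all genes), with elo-5, elo-6 and the receptor nhr-66 higher and the others lower: fat-5, fat-7, icl-1, the methionine synthase metr-1, the receptor nhr-10 and the factor pqm-1. None of the 13 mitochondrial enzymes was called. Against DMSO 9 of them had lower estimates without the UA library of batch 4 (50.3% of all genes did). With all libraries 6 had lower and 7 higher estimates. The regulator nhr-49 was not called in any of the 3 comparisons.
The term for the UA library of batch 4 was called in 4 of the 88 list genes (4.55%, against 1.25% of all genes). It was 0.92 for icl-1, the bifunctional glyoxylate cycle gene (SE 0.13, edgeR adjusted p = 0.000286), and 0.41 for the AMP-activated kinase subunit aak-2, named after its values were seen. It was -0.36 for elo-5 and -0.39 for elo-6.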

How the data were processed

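The authors mapped reads to the WBcel235 genome with STAR 2.5.2b, assigned them to genes with featureCounts 1.5.2 and deposited raw counts per gene, not normalized. Libraries were poly-A selected with a stranded kit. The strand setting and the treatment of multi-mapping reads are not given in the sources used here. Genes with at least 1 CPM in 3 libraries and 10 counts in 1 library were tested. The model was that of edgeR 4.0.16 (R 4.3.3), with terms for group and batch, TMM factors, trended dispersions and the quasi-likelihood test of older versions. The threshold was a Benjamini-Hochberg adjusted p of 0.02 over all tested genes. CPM used TMM library sizes, and log2 CPM a prior count of 2. Standard errors were derived from the log2 fold change and its F statistic. Batch numbers pair the libraries: UA and DMSO libraries of a batch deviated together (correlations 0.458 to 0.823 across genes), as did UA and untreated (0.413 to 0.831) and DMSO and untreated libraries (0.494 to 0.844). Exon lengths came from the Ensembl annotation of the same build. Levels of different genes are ranked per kilobase.

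The members and lists were chosen with earlier results of these data known. Named genes were those called between groups, the 3 smallest p where fewer were called, and the 6 widest and 3 narrowest batch ranges. Also named were the 6 largest terms for the UA library of batch 4, the extremes per kilobase in each family and genes of known role. The genes of known role were cpt-1, cpt-2, acs-1, acs-2, acdh-1, acdh-10, ech-1 and ech-6. Alternatives were RLE factors, DESeq2 1.42.0, the newer quasi-likelihood fit, other filters, a false discovery rate of 0.05, no batch block, only the groups compared, and leaving out each batch or library. Figures were drawn with matplotlib 3.10.9.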

Additional observations from a re-analysis of the deposited data

Results flagged for a closer look

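In the 28 genes chosen by the naming rule above, 84 groups of 5 libraries were examined for a library far from the others. Of these, 3 were found, where about 4.2 would be found by chance at 1 in 20. For acdh-2 the DMSO library of batch 4 stood at 24.01 CPM against 40.6 to 44.3 CPM in the other DMSO libraries, and the UA library of batch 1 at 20.5 CPM against 36.1 to 42.2 CPM in the other UA libraries. For acs-17 the DMSO library of batch 5 stood at 105 CPM against 74.7 to 81.8 CPM in the others, and the untreated library of that batch was also the highest of its group.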

How the results depend on the processing

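The genes called between groups kept their sign in every alternative run of the comparison that called them. Of 28 named genes, estimates near 0 changed sign in at least 1 alternative for 8 between UA and DMSO, 10 between UA and untreated and 7 between DMSO and untreated, and the largest of these was 0.0990 in size. Without the replicate block ech-9 in UA against untreated was at -0.0011. Leaving out each batch or library gave it -0.048 to 0.066, and gave ech-8 -0.223 to 0.011 and acdh-1 -0.013 to 0.031 for UA against DMSO. Without the replicate block (no batch term) 0 genes were called between UA and untreated larvae, and 0 in both comparisons without the UA library of batch 4. With only the libraries of the groups compared, UA against untreated gave 0 and UA against DMSO without the UA library of batch 4 gave 2. At a false discovery rate of 0.05, 1 gene (ech-9) was called between UA and DMSO. Leaving out each batch or library gave 0 to 4 genes for UA against DMSO and 0 to 6 for UA against untreated. Without the UA library of batch 4 it gave 2 to 4 and 4 to 6. It gave 30 to 39 genes across batches, 31 to 37 genes called in at least 1 batch against the others and 2 to 4 for the term of the UA library of batch 4. For UA against DMSO the count rose to 4 without the UA library of batch 4 and to 2 without the whole batch. For UA against untreated it rose to 5 without that library, to 6 without batch 4 and to 2 without the untreated library of batch 4. For DMSO against untreated it stayed at 0. Low counts limit cpt-3, ech-9 and acs-9. The cause of these changes was not tested.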
